A study of Rattus norvegicus with 12 samples.

Results

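Total RNA from whole mammary glands was compared between 3 female Lewis rats that received 3-methylcholanthrene (3-MC) alone and 3 that received the vehicle, 6 of the 12 arrays of the series, with 1 array per rat. All rats had been bilaterally ovariectomized (ovx) at about 10 weeks of age, so both groups lacked ovarian estrogen, and dosing began 14 days later. According to the methods, 3 subcutaneous treatments were given at intervals of 24 hr, 3-MC at 15 mg per kg body weight per day or the DMSO/castor oil mixture alone. Glands were removed 24 hr after the final dose, and the sample labels give the treatment as 48 h. The remaining 6 rats, with the same ovx, received 17β-estradiol (E2) at 4 μg per kg per day, alone or with the same dose of 3-MC, and are used below only where the 3-MC difference without E2 is set beside that with E2. The comparison asks what 3-MC does to gland mRNA when no estrogen is given. Values are linear signal intensities of probe sets of the Affymetrix Rat Gene 1.0 ST array, and 23371 of the 29214 probe sets were tested (mean log2 value above the 20th percentile, which is an intensity of 35.5).

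3-MC is a polycyclic aromatic hydrocarbon and a ligand of the aryl hydrocarbon receptor (AHR). AHR is a transcription factor kept inactive by chaperones such as HSP90, and once it has bound a ligand it acts together with its partner ARNT at xenobiotic response elements, which share a short DNA core. Its best known targets are the CYP1 monooxygenases, which oxidize aromatic hydrocarbons, the AHR repressor (Ahrr), which competes with the receptor for ARNT, and the quinone reductase Nqo1. A mammary gland in the absence of ovarian hormones is a thin duct system in a fat pad, so whole-gland RNA also comes from adipocytes, vessels, immune cells and any muscle taken along with the gland, and a smaller number of cells of a type cannot be told apart from less RNA per cell.

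The promoters of the AHR target genes with the highest differences are shown because the core that the receptor complex binds can be read in them. Each window holds 250 bases before and 50 bases after a RefSeq gene start on GRCr8, in the direction of the gene, and capitals mark the core GCGTG or, where it lies on the opposite strand, CACGC. The core was found in 29.7% of all 33469 rat windows of this length, the longer form TNGCGTG, which contains it, in 4.89%, and 2 or more cores in 10.2%, searching both strands. Of the 18 listed AHR target genes on the array, 14 had a window, 7 held the core and 3 the longer form. The Ahrr window (chr1:30821969-30822268, plus strand) held 3 cores, that of Cyp1b1 (chr6:21094315-21094614, plus strand) 2 cores and that of Nqo1 (chr19:52220218-52220517, minus strand) 1 core. A match is a description of these letters and not evidence of binding.
Ahrr: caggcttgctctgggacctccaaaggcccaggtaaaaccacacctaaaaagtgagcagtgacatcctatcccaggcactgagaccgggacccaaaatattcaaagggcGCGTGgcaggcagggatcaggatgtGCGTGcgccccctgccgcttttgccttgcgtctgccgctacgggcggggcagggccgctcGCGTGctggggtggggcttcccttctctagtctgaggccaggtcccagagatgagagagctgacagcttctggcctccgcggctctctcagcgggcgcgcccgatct
Cyp1b1: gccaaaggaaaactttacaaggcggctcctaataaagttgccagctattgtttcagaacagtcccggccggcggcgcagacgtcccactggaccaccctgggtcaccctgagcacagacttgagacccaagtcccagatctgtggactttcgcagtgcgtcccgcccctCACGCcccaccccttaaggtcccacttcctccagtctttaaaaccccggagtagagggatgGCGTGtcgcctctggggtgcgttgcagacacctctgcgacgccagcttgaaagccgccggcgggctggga
Nqo1: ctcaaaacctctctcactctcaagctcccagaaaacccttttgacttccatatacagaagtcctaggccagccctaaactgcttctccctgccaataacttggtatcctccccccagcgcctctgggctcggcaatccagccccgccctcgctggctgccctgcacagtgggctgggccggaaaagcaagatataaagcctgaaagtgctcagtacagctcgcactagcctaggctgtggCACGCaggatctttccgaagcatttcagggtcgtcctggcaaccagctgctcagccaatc

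The 6 arrays carried a large difference between rats that did not follow the group labels. Skeletal muscle transcripts were abundant in rats 1 and 2 of both groups and nearly missing in rat 3 of both. The fast troponin C Tnnc2 read 4680.3, 5632 and 10.7 in vehicle rats 1 to 3 and 2756, 4523 and 39.2 in 3-MC rats 1 to 3, and the contractile actin Acta1 read 4223, 6979 and 102 with vehicle and 3131, 5412 and 84.2 with 3-MC. Of the 20 genes with the widest spread within a group, 13 in vehicle and 15 in 3-MC were on the skeletal muscle list. The rat number also separated immune transcripts, with rat 2 low in both groups (S100a8 below). Deviations from the group means, correlated over probe sets, were positive for same-numbered rats of vehicle and 3-MC (r = 0.34, 0.44 and 0.56). They were lower for every other pairing of vehicle and 3-MC rats (-0.47 to 0.08). Deviations from a group mean cancel within the group, so positive values for same-numbered rats force lower values on other pairings. The lower values are therefore not separate support for the numbering. Same-numbered rats of pairs that included an E2-treated group had r from -0.28 to 0.24. Nothing in the labels says what a number stands for, so values are given by rat number below and the same-numbered differences are shown beside the fitted ones. The tissue label was borne out by luminal and fat markers on all 6 arrays, with Krt18 at 841 to 1534 and Adipoq, the adipokine adiponectin, at 3433 to 4135.

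**Figure D1:**
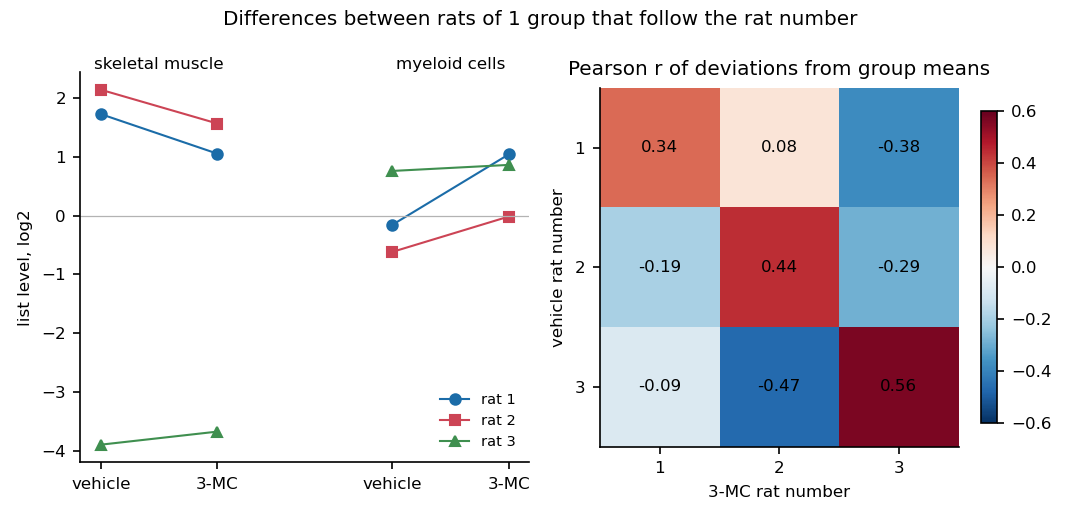
Left, the level of the skeletal muscle and myeloid lists (median of the members' log2 differences from the vehicle mean) in each rat, with lines joining rats of the same number. Right, Pearson r, over probe sets, between deviations from the group means of each vehicle rat (rows) and each 3-MC rat (columns). Same-numbered rats, on the diagonal, had r = 0.34, 0.44 and 0.56, and the muscle level was -3.89 and -3.67 in rat 3 of vehicle and of 3-MC.

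Among AHR target genes, Cyp1b1, Ahrr and Nqo1 were higher in 3-MC rats 1 and 3 than in any vehicle rat, while 3-MC rat 2 lay within or below the vehicle range for all 3 genes, and none passed the test. Cyp1b1, which oxidizes both aromatic hydrocarbons and E2, read 161, 127 and 211 in vehicle rats 1 to 3 and 553, 101 and 588 in 3-MC rats 1 to 3. The groups overlapped through 3-MC rat 2, which was the lowest of the 6. The log2 difference was 0.94 (95% CI -0.21 to 2.08; limma adjusted p = 0.920), with 1.69, -0.29 and 1.41 for rats 1, 2 and 3. Ahrr read 32.2, 34.3 and 80.3 with vehicle and 106, 41.3 and 175 with 3-MC, a log2 difference of 0.84 (CI -0.06 to 1.74; limma adjusted p = 0.920). Same-numbered rats differed by 1.34, 0.19 and 0.99, so the direction was shared and the size in rat 2 was small. Nqo1 read 97.1, 62.3 and 199.8 with vehicle and 234, 72.8 and 361 with 3-MC, a log2 difference of 0.71 (CI -0.39 to 1.81; limma adjusted p = 0.920), and vehicle rat 3 lay above 3-MC rat 2. Its same-numbered differences were 1.15, 0.18 and 0.80. With the skeletal muscle level of each rat as a covariate, the differences were 0.88 for Cyp1b1, 0.77 for Ahrr and 0.64 for Nqo1, and 0 probe sets passed.

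Cyp1a1, the monooxygenase most closely tied to AHR activation, was below the intensity filter and was not tested. It read 24.0, 11.03 and 10.2 in vehicle rats 1 to 3 and 44.5, 21.6 and 39.4 in 3-MC rats 1 to 3, so 2 of 3 3-MC rats exceeded every vehicle rat at intensities close to the filter. The mean and SD were 15.1 ± 7.72 (SD, n = 3) with vehicle and 35.2 ± 12.02 with 3-MC. In the rats given E2 + 3-MC it read 17.98, 111 and 30.6. Serpinb2 was also untested.

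Over the list, 16 of 18 AHR target genes on the array were tested, 0 passed in either direction and 0 had an unadjusted limma p under 0.05. Of the 16, 14 had a positive difference and the median was 0.10, beside a median of 0.06 and 63.5% positive over all tested probe sets. Only Cdkn1b, a cyclin-dependent kinase inhibitor, did not overlap between the groups, and it was lower: 363, 394 and 391 with vehicle against 338, 343 and 312 with 3-MC (log2 -0.20, CI -0.44 to 0.04). Over all tested probe sets, 4.71% did not overlap with 3-MC higher and 2.31% with 3-MC lower. The other 12 tested members (Cyp1a2, Aldh3a1, Gsta3, Nfe2l2, Xdh, Tgm2, Scin, Lrat, Cyp2s1, Slc7a5, Ereg and Il1b) lay between -0.07 (Tgm2) and 0.23 (Il1b). With the rat number as a block, 3 members (Ahrr, Nqo1 and Cyp1b1) had an unadjusted limma p under 0.05, beside 7.11% of all probe sets higher, and 0 passed. Leaving out the same rat of both groups gave a median of 0.04 with 10 of 16 positive and 0 unadjusted p under 0.05 without rat 1, and 0.14 with 14 positive and 0 without rat 3. Without rat 2 the median was 0.15 and 3 members were under 0.05, with log2 differences of 1.55 for Cyp1b1, 1.16 for Ahrr and 0.97 for Nqo1. Rat 2 was the pair of smallest differences for these 3 genes, so that value is a description.

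The receptor machinery itself differed little. Ahr read 264, 246 and 336 with vehicle and 310.2, 294 and 222 with 3-MC (log2 -0.04, CI -0.40 to 0.33), with full overlap. Its partner Arnt read 428, 425 and 449.9 with vehicle and 519, 419.5 and 411 with 3-MC (log2 0.04, CI -0.22 to 0.30). The remaining members of the complex other than Ahrr, which are Arnt2 and the chaperone components Hsp90aa1, Hsp90ab1 and Ptges3, lay between 0.02 and 0.26. These intervals limit the change of Ahr to between -0.40 and 0.33 on the log2 scale.

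**Figure D2:**
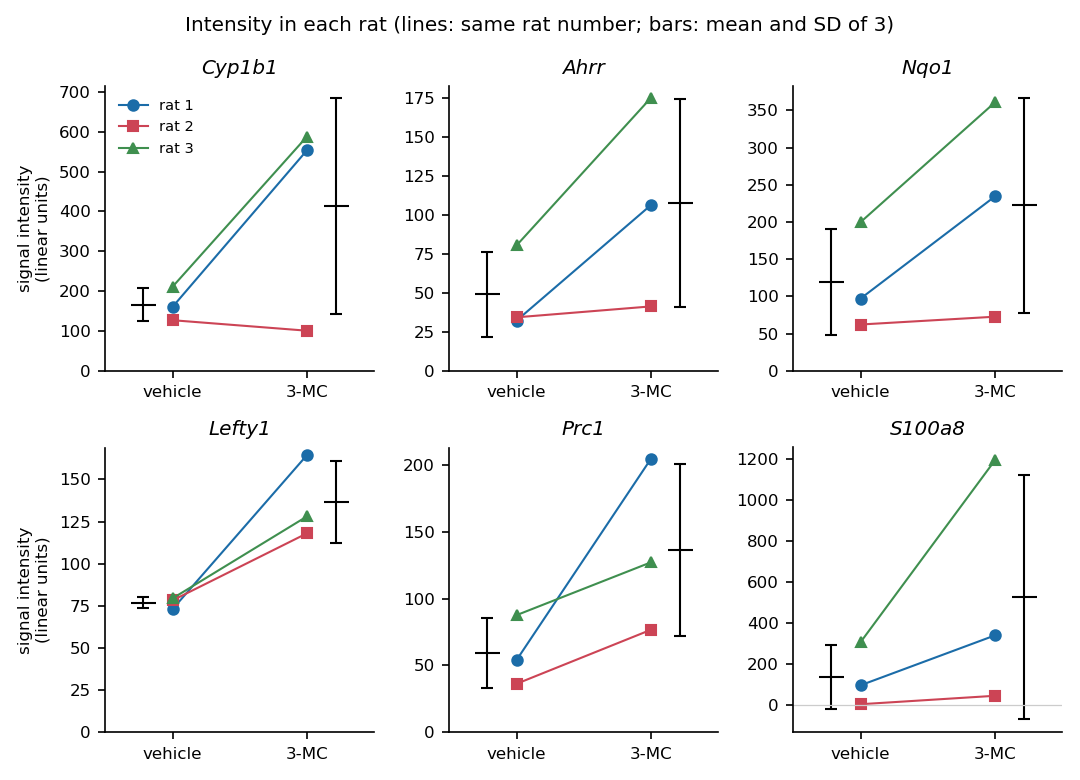
Signal intensity (linear units) of 6 genes in vehicle and 3-MC rats, with lines joining rats of the same number and black bars for the mean and SD of 3 rats. The Cyp1b1, Ahrr and Nqo1 lines for rat 2 are nearly flat, the Lefty1 values of 118 to 164 with 3-MC all lie above the vehicle values of 73.1 to 79.5, and S100a8 keeps the order of the rats.

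Across the array, 3-MC alone gave 0 probe sets higher and 0 lower at the threshold of 1.5-fold and a limma adjusted p under 0.05 (0% of 23371 in each direction), and the smallest adjusted p was 0.920. The methods' t-test also gave 0 after adjustment (smallest adjusted p = 0.994). At an unadjusted limma p under 0.05 there were 715 higher (3.06%) and 276 lower (1.18%), 991 in all. This was a smaller share than the 0.05 that the threshold gives on average without any difference. With a 1.5-fold difference as well there were 137 higher (0.586%) and 43 lower (0.184%). With the rat number as a block, the count at an unadjusted p under 0.05 was 2085, of which 1661 were higher (7.11%) and 424 lower (1.81%), still with 0 at the adjusted threshold. On fold alone, 363 probe sets were at least 1.5-fold higher and 74 lower, a share of 83.1% higher. That share was 69.2% after quantile normalization was applied again and 69.8% with each array centred on its median. These scalings moved the median difference of all probe sets from 0.06 to -0.01 and 0.00. Of the 180 probe sets past the unadjusted p and the fold, 76.1% were higher. Among the probe sets past both after each of those scalings, 56.5% and 56.3% were higher. For these shares and those on fold alone, the probe sets were chosen anew under each scaling.

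The median standard error of a log2 difference was 0.16 and the median 95% interval reached 0.34 to either side. The median SD of log2 intensity was 0.18 among vehicle rats and 0.20 among 3-MC rats, and 42.3% of probe sets had the larger SD in vehicle. Log2 intensities correlated at 0.967 to 0.983 between same-numbered rats of the groups, at 0.949 to 0.968 within vehicle and at 0.952 to 0.964 within 3-MC. Rats of different number across the groups correlated at 0.937 to 0.973, so these ranges overlap. Of all probe sets, 23.5% were higher with 3-MC in all 3 same-numbered pairs and 8.75% lower in all 3. The pairs differed in size: 1429 probe sets were at least 1.5-fold higher and 244 lower in rat 1, 1273 and 710 in rat 2, and 346 and 347 in rat 3.

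**Figure D3:**
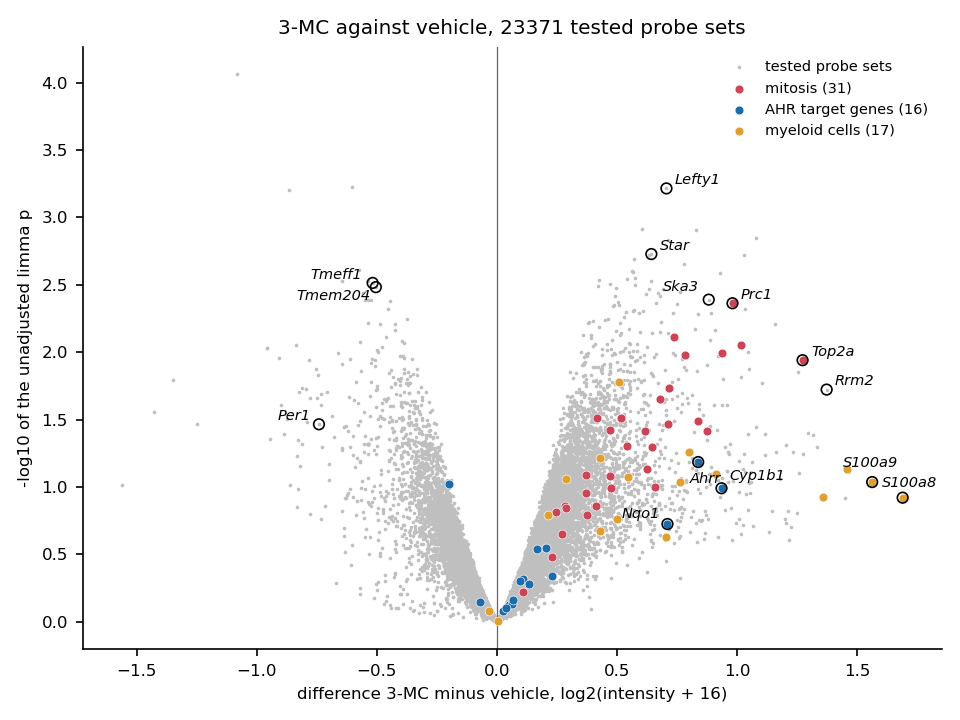
Difference between 3-MC and vehicle on the log2(intensity + 16) scale (horizontal) against -log10 of the unadjusted limma p (vertical) for the 23371 tested probe sets, with the mitosis, AHR target and myeloid lists coloured and genes of the text ringed. No point passed after adjustment (smallest adjusted p 0.920), all 31 mitosis genes lie to the right of 0, and most AHR target genes lie near 0.

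Lefty1, a secreted antagonist of Nodal in the transforming growth factor β family (GRCr8 chromosome 13, 95188091 to 95191488), had the smallest p of any named gene in the fit without a block. With the rat number as a block its adjusted p was 0.522, and genes such as S100a8, S100a9, Slpi, Cdk1 and Rrm2 had smaller p. It read 73.1, 78.3 and 79.5 in vehicle rats 1 to 3 and 164, 118 and 128 in 3-MC rats 1 to 3. Every 3-MC rat lay above every vehicle rat, and the vehicle rats were close together. The log2 difference was 0.71 (CI 0.36 to 1.05), 1.63-fold, with a limma adjusted p of 0.920. In the presence of E2 the 3-MC difference was -0.01, and the difference between the effects was 0.72 (CI 0.24 to 1.20; limma adjusted p = 0.982).

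The other 19 named genes of smallest p were chosen by p on these arrays, and their values are a description. Of these, 16 were higher with 3-MC and 3 lower, all with a limma adjusted p of 0.920, and all but Prc1 were without overlap. The choice by p favours such genes, and over all probe sets 4.71% were higher and 2.31% lower without overlap. Star, which carries cholesterol into mitochondria, read 264, 223 and 214 with vehicle and 277, 449 and 414 with 3-MC (log2 0.64), and the excess came from rats 2 and 3. Angptl4, an inhibitor of lipoprotein lipase, read 715, 703 and 502 with vehicle and 1160.0, 801 and 1112 with 3-MC (log2 0.66). Glycerol kinase Gk read 104, 87.6 and 95.8 with vehicle and 148, 122 and 133 with 3-MC (log2 0.42), with same-numbered differences of 0.44, 0.41 and 0.41 that were nearly equal. The autophagy protein Vmp1 read 525, 355 and 643 with vehicle and 879, 704 and 826 with 3-MC (log2 0.68), and the X-linked Bex1 122, 94.3 and 105 with vehicle and 241, 141 and 177 with 3-MC (log2 0.69). Both were higher in every 3-MC rat.

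Others of this set were 2 chloride channel genes, Pacc1 (log2 0.42), which opens on acid, and Lrrc8e (0.57), a subunit of the volume-regulated channel. Mitochondrial prohibitin Phb1 stood at 0.47, Heatr1, which acts in ribosomal RNA processing, at 0.50 and the ubiquitin ligase Trim13 at 0.57. Avpi1 had 0.64, the protease Htra4 0.59, the arylsulfatase Arsi 0.50 and Pmch, which encodes melanin-concentrating hormone, 0.49. The kinetochore gene Ska3 (0.88) and the central spindle gene Prc1 (0.98) belong to cell division. The lower genes were Tmeff1 (-0.52), a transmembrane protein with follistatin-like domains, the membrane protein Tmem204 (-0.50) and the phosphorylase kinase subunit Phkg1 (-0.45). Tmem204 read 281, 234 and 219 with vehicle and 185, 162 and 155 with 3-MC. Of the 20 probe sets with the smallest p, named or not, 17 carry no gene symbol in the array annotation used here. Over all tested probe sets 13139 of 23371 carry 1 symbol, so those without a symbol were more frequent among these 20. An example is probe set 10891371, which read 329, 259 and 292 with vehicle and 137, 98.6 and 160.4 with 3-MC.

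Genes of mitosis had higher values with 3-MC, and none passed the test. All 31 tested members had a positive difference, with a median of 0.54 beside 0.06 for all probe sets, and 16 had an unadjusted limma p under 0.05 (background 3.06%), while 0 passed after adjustment. With the rat number as a block, 23 had an unadjusted p under 0.05 (background 7.11%) and 0 passed. In 25 of 31 all 3 same-numbered pairs were higher (background 23.5%), but only Spc25, of the kinetochore, was free of overlap. Topoisomerase Top2a read 65.3, 14.4 and 125 in vehicle rats 1 to 3 and 261, 92.0 and 148 in 3-MC rats 1 to 3 (log2 1.27, CI 0.34 to 2.21). The groups overlapped, since vehicle rat 3 exceeded 3-MC rat 2. The kinase Cdk1 read 24.8, 8.79 and 37.8 with vehicle and 87.4, 30.6 and 77.8 with 3-MC (log2 1.02, CI 0.30 to 1.73), its cyclin partner Ccnb2 51.4, 35.6 and 71.7 with vehicle and 224, 64.5 and 95.3 with 3-MC (log2 0.94), and Prc1 54.0, 36.3 and 87.6 with vehicle and 204, 76.7 and 127 with 3-MC (log2 0.98). Rat 2 was the lowest of each group for these 4 genes.

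The size of the mitosis difference depended on rat 1. The median mitosis difference was 1.02 in rat 1, 0.38 in rat 2 and 0.18 in rat 3. Without rat 1 of both groups the median was 0.28, 29 of 31 were positive and 0 had an unadjusted p under 0.05, whereas without rat 2 there were 24 and without rat 3 there were 21. Genes of DNA replication differed less: 25 of 25 were positive with a median of 0.25, 17 were higher in all 3 pairs, and 1 had an unadjusted p under 0.05, against 8 with the block. The median was 0.22 without rat 1 of both groups, with 23 positive and 0 under 0.05. The 1 gene was Rrm2, a subunit of ribonucleotide reductase, at 92.5, 31.5 and 190.4 with vehicle and 393, 109.5 and 344 with 3-MC (log2 1.37, CI 0.26 to 2.48).

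In rats given E2, the medians of both lists had the opposite sign. E2 + 3-MC minus E2 gave a median of -0.76 for mitosis and -0.40 for DNA replication, from other rats than the comparison without E2, and the difference between the medians was not tested. Nusap1, a microtubule-binding protein of the spindle, read 47.3, 24.0 and 72.6 with vehicle and 112, 65.3 and 83.9 with 3-MC alone (log2 0.74) and differed by -1.31 with E2. The difference between these effects was 2.05 (CI 1.33 to 2.77; limma adjusted p = 0.446), the smallest p of that test, and 0 of 23371 probe sets passed it, with 1032 at an unadjusted p under 0.05. Those 1032 were also a smaller share of all probe sets than the 0.05 of the threshold. Without vehicle rat 3 Nusap1 did pass, at 2.32 and a limma adjusted p of 0.0453. For the AHR targets the sign was the same in both settings: with E2 the 3-MC difference was 1.61 for Cyp1b1, 1.27 for Ahrr and 1.35 for Nqo1, and the difference of effects was -0.68 (CI -2.30 to 0.95), -0.44 (CI -1.71 to 0.84) and -0.64 (CI -2.20 to 0.92). These intervals include 0 and effects that differ by more than 2-fold.

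**Figure D4:**
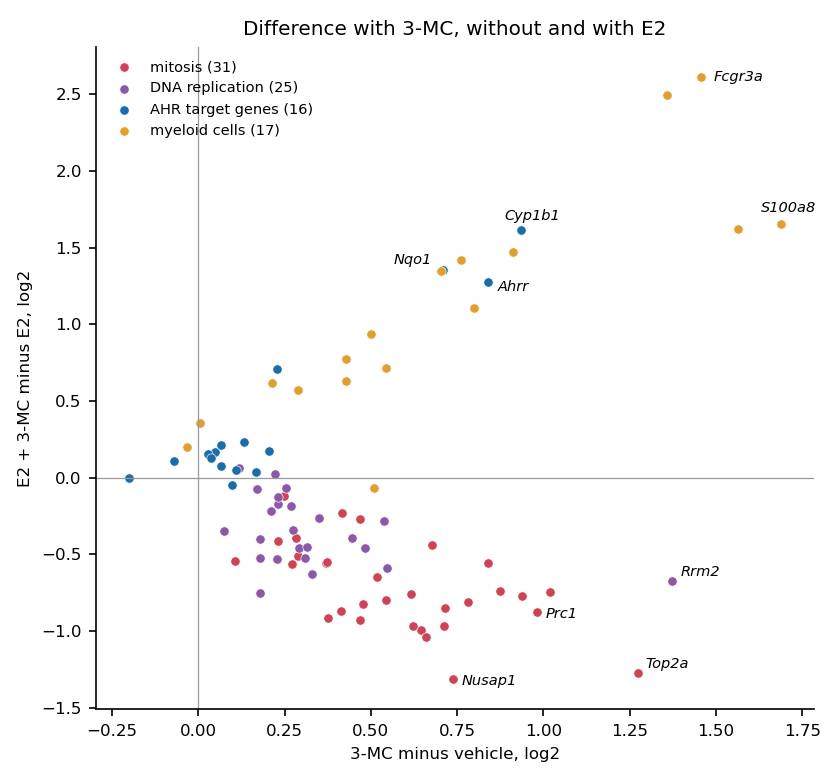
Log2 difference of 3-MC minus vehicle (horizontal) against that of E2 + 3-MC minus E2 (vertical) for tested genes of 4 lists. Mitosis genes lie to the right of 0 and below it, with medians of 0.54 and -0.76, while Cyp1b1 (0.94 and 1.61) and Ahrr (0.84 and 1.27) are above 0 on both axes.

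Among immune genes, the myeloid, lymphocyte, chemokine and interferon lists were all higher with 3-MC in the median, and again 0 members passed. The myeloid median was 0.54, with 16 of 17 positive and 1 unadjusted p under 0.05 (Cd14), the lymphocyte median 0.55 with 12 of 13 positive and 3 under 0.05, and the chemokine median 0.40 with 18 of 22 positive and 2 under 0.05, beside 3.06% of all probe sets. With the rat number as a block these counts were 11, 7 and 9, beside 7.11%, with 0 passed and 1 chemokine lower. The chemokine median was 0.16 without rat 1 of both groups, with 14 positive and 1 under 0.05. The alarmin S100a8 of neutrophils (chromosome 2, 178464095 to 178465223) had the widest fitted difference of any probe set. It read 98.1, 5.93 and 308 in vehicle rats 1 to 3 and 341, 47.0 and 1193 in 3-MC rats 1 to 3. The groups overlapped widely, since 3-MC rat 2 lay below 2 vehicle rats, yet each 3-MC rat lay above the vehicle rat of its number, by 1.65, 1.52 and 1.90 on the log2 scale. The fitted difference was 1.69 (CI -0.50 to 3.88; limma adjusted p = 0.920), and with the rat number as a block the adjusted p was 0.0507. That p depended on the pseudocount, since vehicle rat 2 read far below the intensity filter: it was 0.410 with a pseudocount of 1 and 0.250 with 32. The rat 2 difference was 2.79 and 1.06 in these settings, while all 3 pairs stayed positive. Its partner S100a9 read 75.8, 17.0 and 268 with vehicle and 312, 51.4 and 986 with 3-MC (log2 1.56), with an adjusted p of 0.383 under the block (0.255 and 0.339 with pseudocounts of 1 and 32).

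The endotoxin co-receptor Cd14 read 853, 917 and 1132 with vehicle and 1671, 1226 and 1263 with 3-MC (log2 0.51, CI 0.11 to 0.91), without overlap. The macrophage lysosomal protein Cd68 read 359.7, 263 and 803 with vehicle and 1125, 452 and 831 with 3-MC (log2 0.80), with overlap through 3-MC rat 2. Among lymphocyte genes the T cell receptor component Cd3e read 56.5, 46.3 and 75.7 with vehicle and 115, 104 and 83.6 with 3-MC (log2 0.64). It did not overlap, and neither did perforin, Prf1 (log2 0.48), or the interferon-induced chemokine Cxcl9 at 399, 222 and 326 with vehicle and 1243, 549 and 401 with 3-MC (log2 1.04). Of the 13 tested lymphocyte genes, 2 were higher and 1 lower without overlap, beside 4.71% and 2.31% of all probe sets. Fcgr3a, an IgG receptor, was high in 3-MC rat 1 alone: 129, 65.4 and 183 with vehicle and 1541, 163 and 158 with 3-MC (log2 1.46, CI -0.16 to 3.07).

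The type I interferon list rested on that rat. All 19 members had a positive difference and a median of 0.35, but the list level was 1.52 in 3-MC rat 1 and -0.15 and -0.04 in 3-MC rats 2 and 3, against -0.01, -0.44 and 0.45 in vehicle. Isg15, a ubiquitin-like interferon product, read 238, 131 and 359 with vehicle and 1362, 173 and 243 with 3-MC (log2 0.76). Without rat 1 of both groups the median was -0.08 with 8 of 19 positive. Myeloid and lymphocyte medians without rat 1 were 0.28 and 0.31, and 0 members had an unadjusted p under 0.05. The part of immune cell content in the mitosis and AHR target values was not tested.

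**Figure D5:**
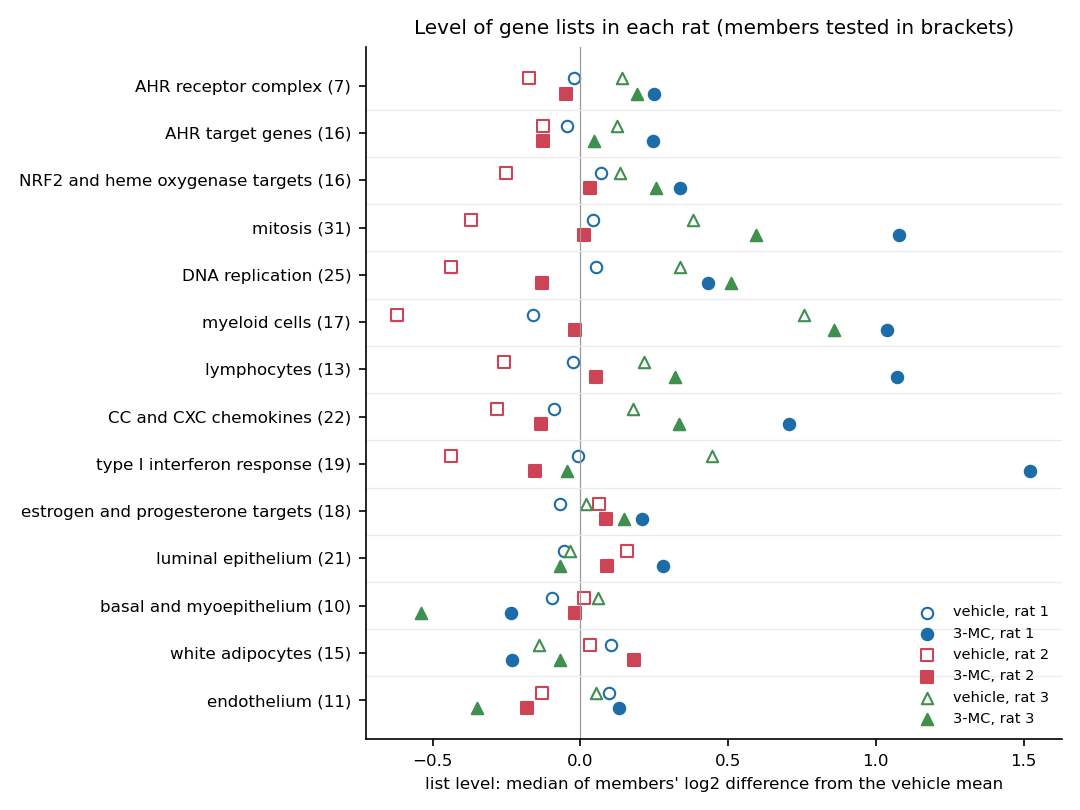
Level of 14 gene lists in each rat, as the median of the members' log2 differences from the vehicle mean (horizontal axis), with open symbols for vehicle, filled symbols for 3-MC and 1 shape per rat number. Mitosis and immune lists were highest in 3-MC rat 1 (1.08 for mitosis, 1.52 for interferon), and rat 2 was lowest in both groups for mitosis and myeloid cells.

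In oxidative defence, the list of NRF2 and heme oxygenase targets, which shares Nqo1 with the AHR list, had 14 of 16 positive, a median of 0.25 and 9 members higher in all 3 pairs (background 23.5%), with 0 passed. Over all probe sets 63.5% were positive. Of the 16, 2 were higher and 0 lower without overlap, beside 4.71% and 2.31% of all probe sets. Without rat 1 of both groups the median was 0.16 with 12 positive and 0 at an unadjusted p under 0.05. Heme oxygenase Hmox1 read 382, 144 and 799 with vehicle and 2583, 174 and 1119 with 3-MC (log2 1.15, CI -0.48 to 2.77), and rat 2 was again the lowest of each group. Biliverdin reductase Blvrb, the next enzyme of heme breakdown, read 131, 133 and 164 with vehicle and 167, 201 and 185 with 3-MC (log2 0.34) and did not overlap, and neither did Osgin1, an oxidative stress response gene (log2 0.25). The NADPH-forming malic enzyme Me1 read 980.2, 590.4 and 1495 with vehicle and 1301, 1394 and 1335 with 3-MC (log2 0.49). Of 17 p53 targets, 12 were positive with a median of 0.12, and 0 had an unadjusted p under 0.05. Without overlap, 1 was higher and 1 lower, beside 4.71% and 2.31% of all probe sets. Phlda3, an AKT inhibitor, was lower in each 3-MC rat at 903, 948 and 866 with vehicle and 712, 804 and 778 with 3-MC (log2 -0.24).

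Hormone receptors and their targets showed differences of either sign without E2, and none passed. The prolactin receptor Prlr read 219.9, 193 and 155 with vehicle and 303, 252 and 209 with 3-MC (log2 0.40, CI 0.02 to 0.78), higher in each same-numbered pair by 0.43, 0.36 and 0.39 although 3-MC rat 3 lay below vehicle rat 1. Estrogen receptor α, Esr1, read 447, 323 and 250.2 with vehicle and 363, 412 and 150.2 with 3-MC (log2 -0.21, CI -0.86 to 0.44), with no common direction. The progesterone receptor Pgr, a classical estrogen target, read 38.3, 45.6 and 31.1 with vehicle and 76.6, 27.5 and 67.8 with 3-MC (log2 0.37), higher in rats 1 and 3 and lower in rat 2. The other tested receptors, Ghr, Nr3c1, Nr3c2 and Gper1, lay between -0.12 and 0.23. Of 18 tested estrogen and progesterone targets, 14 were positive with a median of 0.14, and 2 (Lefty1 and Foxa1) had an unadjusted p under 0.05, while without rat 1 of both groups the median was 0.08 with 12 positive. The growth factor Areg read 44.1, 20.1 and 50.4 with vehicle and 70.0, 42.1 and 62.2 with 3-MC (log2 0.48), and β-casein, Csn2, 85.8, 103 and 80.8 with vehicle and 308, 39.2 and 135 with 3-MC (log2 0.40), where the spread among 3-MC rats exceeded the difference. The milk list had a median of 0.01 (-0.17 without rat 1 of both groups) with 12 of 22 positive. Without overlap, 0 of its members were higher and 1 lower, beside 4.71% and 2.31% of all probe sets. Its Plin2, which coats lipid droplets, read 1033, 833 and 1076 with vehicle and 1727, 1062 and 1446 with 3-MC (log2 0.50).

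The epithelial list medians depended on single rats. In the luminal list 17 of 21 were positive with a median of 0.11, and 3 had an unadjusted p under 0.05 (background 3.06%). Without rat 1 of both groups the median was -0.08 with 8 positive and 0 under 0.05. Of the 21, 2 were higher and 0 lower without overlap, beside 4.71% and 2.31% of all probe sets. The pioneer factor Foxa1 read 55.9, 76.0 and 70.7 with vehicle and 90.3, 101 and 106 with 3-MC (log2 0.47) and the protease St14 132, 191 and 209 with vehicle and 277, 213 and 267 with 3-MC (log2 0.49), both without overlap, and the tight junction gene Cldn7 411, 574 and 499 with vehicle and 689, 849.8 and 522 with 3-MC (log2 0.45), with overlap. Basal and myoepithelial genes had a median of -0.27 with 1 of 10 positive, and without rat 3 of both groups it was -0.07 with 4 positive. Of the 10, 2 were lower and 0 higher without overlap. One of these was Mylk, the myosin light chain kinase, at 332, 342 and 312 with vehicle and 285, 267 and 208 with 3-MC (log2 -0.37). The keratin Krt15, counted in the epidermis and hair follicle list, read 665, 569.6 and 693 with vehicle and 415, 562 and 304 with 3-MC (log2 -0.61). It was also lower without overlap, while 5 of the 6 tested members of its list were positive (median 0.05). Neither Mylk nor Krt15 passed. White adipocyte genes had a median of -0.07 with 2 of 15 positive, and 2 were lower without overlap. The median was 0.03 without rat 1 of both groups, -0.14 without rat 2 and -0.14 without rat 3. Adipoq had a log2 difference of -0.08 (CI -0.37 to 0.22) and the fat cell regulator Pparg one of -0.36 (CI -0.76 to 0.04). The lipogenic carboxylase Acacb was lower without overlap (206, 284 and 209 against 178, 170.2 and 144, log2 -0.46). In the list of fatty acid and triglyceride synthesis, 1 of 21 tested genes was lower and 0 higher without overlap. Of 16 clock genes, the repressor Per1 read 302, 375 and 153 with vehicle and 122, 144 and 188 with 3-MC (log2 -0.74), lower in rats 1 and 2 and higher in rat 3, and Bhlhe40 read 529, 357 and 489.6 with vehicle and 677, 556 and 555 with 3-MC (log2 0.38).

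Median differences lay between -0.05 and 0.19 for the lists of estrogen metabolism, brown adipocytes, fibroblasts and matrix, epidermis and hair follicle, fatty acid and triglyceride synthesis, cholesterol synthesis, glycolysis, fatty acid oxidation, the unfolded protein response and immediate early genes. Endothelial genes had a median of -0.16 with 1 of 11 positive, and skeletal muscle genes a median of -0.35, small beside the spread between rats. The medians of fatty acid synthesis, fatty acid oxidation, epidermis, immediate early and milk genes were negative under both other scalings, and that of the AHR complex was -0.01 with centred arrays, while the other lists kept their sign. The 15 tested genes that the study had picked for measurement, partly on these samples and so not independent evidence, had a median of 0.40 with 12 positive and 5 at an unadjusted p under 0.05, and 0.18 with 1 under 0.05 without rat 1 of both groups.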

How the data were processed

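Per the labels and methods, each rat's RNA was labeled and run on 1 Affymetrix Rat Gene 1.0 ST array, and the authors condensed probe signals to linear intensity values of probe sets with PLIER (Expression Console). Quantile normalization, baseline transformation and removal of the lowest 20 percent in GeneSpring are named in the methods but not visible in the deposited intensities, whose array medians ran from 85.7 to 109.5 among the 6 arrays. A difference of this kind shifts every probe set of an array. Values were used as log2(intensity + 16), which understates differences of dim genes. Probe sets with a mean above the 20th percentile were fitted with limma 3.58.1 in R 4.3.3, in 1 model of 4 groups sharing 1 spread estimate. All tests were two-sided with Benjamini-Hochberg adjustment over 23371 probe sets, and a probe set passed at an adjusted p under 0.05 and 1.5-fold. A gene was represented by its probe set of highest mean (12420 genes). Of 29214 probe sets, 15310 had 1 symbol in the platform annotation, 323 several and 13581 none, and 15279 of the first matched RefSeq genes of GRCr8.

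The level of a list is a median over its genes, each as log2 minus the mean of the vehicle rats. Named genes were the 20 of smallest p, all tested members of the AHR and receptor lists and of the study's own genes, up to 4 of each other list by p, and the 5 of widest spread per group. Spc25, S100a8, S100a9, Isg15, Hmox1, Krt18 and Adipoq were named after their values were seen. The members and lists were chosen with earlier results of these data known. Rat numbers were taken as pairs for vehicle and 3-MC on the values alone (r = 0.34, 0.44 and 0.56), since no label says what a number marks. In pairs that included an E2-treated group, same-numbered rats had r from -0.28 to 0.24. The pairing thus came from the values that the block was fitted to, so p-values with the block and counts over pairs are a description. The alternatives were other filters, pseudocounts of 1 and 32, 2 rescalings, 1 probe set per gene, other limma settings, the rat number as a block, muscle level as a covariate, other thresholds, the methods' t-test and leaving out each rat. Leaving out a numbered rat of both groups, counting lists under the block and the block with other pseudocounts were added after seeing the data. On simulated data with 100 changes of each size, 81% of log2 changes of 1 and 100% of 2 were recovered, with 9 false calls. These shares hold for the simulated spread only. In the rats, S100a8 did not pass at a log2 difference of 1.69 (limma adjusted p = 0.920). The shares therefore do not apply to genes that varied widely between rats. The number of arrays limits the precision. Python 3.11.15 with matplotlib 3.10.9 drew the figures.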

Additional observations from a re-analysis of the deposited data

How the results depend on the processing

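At the adjusted threshold, the counts of 0 higher and 0 lower held under every filter, pseudocount, scaling, limma setting and left-out rat that was run. The exceptions drop the adjustment: the methods' unadjusted t-test with 1.5-fold gave 22 higher and 10 lower, and 1.5-fold alone 363 and 74. With the rat number as a block in the 6 arrays the counts stayed 0 and 0, the smallest adjusted p was 0.0507 (S100a8) and 2085 probe sets had an unadjusted p under 0.05. That S100a8 value was 0.410 with a pseudocount of 1 and 0.250 with 32. The block changed no call. For the difference of the 3-MC effects without and with E2, leaving out 1 rat gave 0 to 1 probe sets, the 1 being Nusap1 without vehicle rat 3. Of 1812 values of 61 genes under alternatives, 7 reversed. With 1 rat left out in turn, Csn2 ranged from -0.21 to 1.07 and Isg15 from -0.12 to 1.31, negative without 3-MC rat 1, and Esr1 from -0.47 to 0.22, positive without 3-MC rat 3. Without rat 1 of both groups Csn2 was -0.23, Isg15 -0.084 and Adipoq 0.017, and without rat 3 of both Esr1 was 0.025. The cause was not tested. A group left with 2 rats was assumed to vary like the others. Intensities near or below the filter limit what can be said of dim genes. Examples are those of Cyp1a1, and of vehicle rat 2 for Top2a, Cdk1, Nusap1, Rrm2 and Ahrr.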
